A study of Homo sapiens with 4 samples.

Results

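The regions described are the promoters of chromosome 19 other than those of genes with ZNF, RPL or RPS symbols, in HEK293 cells that had received a DNA methyltransferase targeted to another chromosome. The rule used annotation and no measured value, although it was set with earlier results of these data known. It takes the 1000 bp on either side of the canonical start site of each protein-coding gene of chromosome 19 in GENCODE release 44, lifted to hg19, whose symbol does not begin with ZNF, RPL or RPS, so that zinc finger genes under other symbols and mitochondrial ribosomal protein genes are members. This gave 1212 promoters of 19863 in all, and each was compared with the list of new peaks of the Ab-3A3L (WT) library. A further 6 genes, LILRB3 and LILRA6 among them, carried no lifted canonical transcript and had no start site by this rule. Neighbouring windows can overlap, and the 1212 windows join into 1100 separate stretches. In all, 81 members are known by an identifier in place of a symbol.

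HEK293 is a human embryonic kidney cell line. It was studied in 4 conditions with 1 library each, namely Untreated cells and cells with Ab-3A3L (WT), Ab-3A3L (K844E) or Ab-3A3L (R887E). The cells of the library used here carried dCas9 fused to an array of SunTag peptides, a GCN4 antibody fragment fused to the C-terminal domains of DNMT3A and DNMT3L (Ab-3A3L), and an sgRNA against the CpG island of ISG15, were transfected transiently, and were sorted for all plasmids after 3 days. Methylated DNA was pulled down with GST-MBD2 and sequenced (MBD-seq). A new peak is a region on the authors' list of peaks that this library has and untreated cells lack. The libraries of the untreated and mutant cells were not analysed here, and without replicates no difference can be set against a spread between libraries. In DNA pooled from many cells, methylation in fewer cells and fewer methylated CpGs per cell cannot be told apart.

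DNMT3A places methyl groups on unmethylated CpGs, and DNMT3L, which has no activity of its own, stimulates it. Most CpG island promoters are free of methylation in normal cells, whereas CpG-poor promoters of tissue-specific genes are often methylated. Chromosome 19 has the highest gene density of the human chromosomes and is rich in GC and in CpGs between its genes. Besides its zinc finger genes it carries large clusters of immune receptors, kallikreins and olfactory receptors with few CpGs, and many housekeeping and regulatory genes with CpG islands.

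The range of promoters can be read from the 120 bases upstream of 5 start sites (hg19 reference, strand of the gene), shown because they are the extremes of the CpG number with and without a new peak and the promoter with the highest fold. Each CpG is in capitals. NUDT19 at chr19:33182607-33182726 (plus strand), with the highest fold of all members, holds 11 CpGs in this stretch. CEBPA at chr19:33793441-33793560 (minus strand) has the most CpGs of the promoters with a peak, KLF16 at chr19:1863579-1863698 (minus strand) the most of those without one, level with USF2, and they hold 19 and 22 CpGs in the stretch. SIGLEC11 at chr19:50464430-50464549 (minus strand) has the fewest CpGs of the promoters with a peak, and OR2Z1 at chr19:8831878-8831997 (plus strand) the fewest of all members, level with OR4F17, and they hold 3 and 0 in the stretch.
NUDT19: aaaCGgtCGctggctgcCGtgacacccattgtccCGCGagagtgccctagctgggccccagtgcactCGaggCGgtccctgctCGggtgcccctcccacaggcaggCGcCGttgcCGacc
CEBPA: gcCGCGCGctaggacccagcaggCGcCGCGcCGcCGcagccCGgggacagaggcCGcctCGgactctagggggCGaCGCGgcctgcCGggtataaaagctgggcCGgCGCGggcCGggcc
KLF16: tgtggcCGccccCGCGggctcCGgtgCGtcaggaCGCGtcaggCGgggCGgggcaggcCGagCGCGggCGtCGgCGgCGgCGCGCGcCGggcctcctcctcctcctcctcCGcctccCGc
SIGLEC11: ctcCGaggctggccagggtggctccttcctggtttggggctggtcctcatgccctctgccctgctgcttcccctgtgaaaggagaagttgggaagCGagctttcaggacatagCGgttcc
OR2Z1: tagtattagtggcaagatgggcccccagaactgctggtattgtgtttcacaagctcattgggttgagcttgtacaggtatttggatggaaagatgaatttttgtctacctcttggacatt
The stretches of CEBPA and KLF16 look alike in CpG content although only the CEBPA window carries a new peak, while OR2Z1 offers no CpG at all. The peaks of CEBPA (33793155 to 33793407) and SIGLEC11 (50464020 to 50464283) lie downstream of the start site, outside the printed bases. The peak of NUDT19 (33182685 to 33183682) reaches into them.

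Of the 1212 promoters, 292 overlapped a new peak by at least 1 bp, or 24.1% (95% exact Clopper-Pearson interval 21.7% to 26.6%, for counting error only). Over all 19863 protein-coding promoters the share was 42.1%, and over the 18392 promoters of the other chromosomes 43.6% (42.9% to 44.3%). The members were not poor in CpGs, with a median of 94 CpGs per window against 97 elsewhere and a GC content of 58.8% against 55.8%, but their observed/expected CpG ratio was lower, with 0.554 against 0.644. When each member was given the share of promoters with the same CpG number on other chromosomes, in 10 classes, the weighted share was 41.9%, so that the observed share lay -17.8 percentage points from it. With classes of the observed/expected ratio in place of the CpG number the difference was -10.5 points. This comparison is a description of 1 library and no test of the difference was made. Promoters already methylated in untreated cells could not be set aside. The 246 ZNF promoters of the chromosome, with a median of 81 CpGs, had a peak in 22.8% (17.7% to 28.5%), against a weighted share of 35.8%, and of the 13 RPL and RPS promoters 1 had a peak.

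Within the members, the share with a new peak rose with the CpG number of the window (see the plot by CpG number). None of the 47 promoters with 1 to 20 CpGs and none of the 139 with 21 to 38 CpGs had a peak, which allows shares of up to 6.38% and 2.16%, taking 3 counts as the limit of a count of 0. On other chromosomes these classes had 0.0489% and 1.09%. With 39 to 64 CpGs it was 2 of 197 promoters, or 1.02%, and with 65 to 83 CpGs 21 of 139, or 15.1%, against 8.20% and 26.3% elsewhere. From 111 to 126 CpGs, 46 of 140 members had a peak, or 32.9% (25.2% to 41.3%), where the other chromosomes had 67.7% (65.5% to 69.8%). In the highest class, with 171 to 339 CpGs, the shares were 59.0% (48.7% to 68.7%) and 80.1% (78.2% to 81.9%). From 39 CpGs upward the interval of the members lay below that of the other chromosomes in all 8 classes. The median CpG number was 131.5 in members with a peak and 77 in those without, and the observed/expected CpG ratio 0.687 against 0.485.

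**Figure D1:**
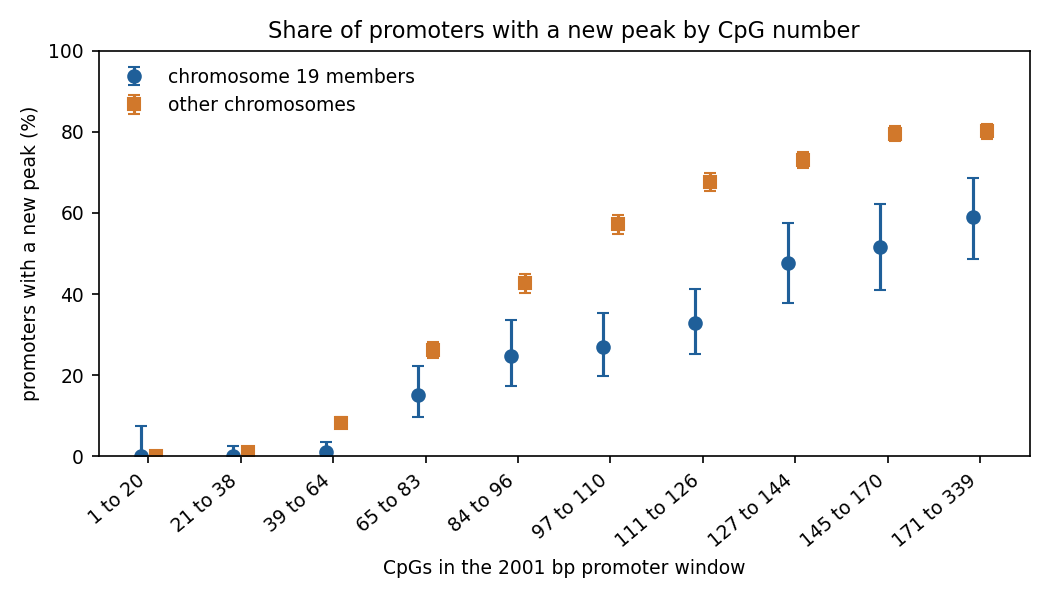
Share of promoters with a new peak (%, vertical axis) in 10 classes of the number of CpGs in the 2001 bp window (horizontal axis), for the 1212 chromosome 19 members (circles) and the promoters of other chromosomes (squares), with 95% exact binomial intervals. Both shares rise with the CpG number, and the members reach 59.0% in the highest class against 80.1% elsewhere.

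The same weighting was applied to each chromosome in turn. Chromosome 19 had 0.576 times its weighted share, which was the lowest ratio of the 22 autosomes. Chromosome 16 followed with 0.827, and chromosomes 22 and 17, which are also rich in genes and CpGs, had 0.947 and 0.981. At the other end stood chromosome 5, with 1.21. Only X and Y were lower than chromosome 19, with 0.241 and 0 times their weighted shares. On Y, 0 of 44 promoters had a peak, and the list cannot tell whether these cells hold that chromosome. Nor can it tell whether promoters of X were methylated before treatment. With X and Y left out of the other chromosomes, chromosome 19 lay -19.2 points from its weighted share. Per Mb of chromosome length, gaps included, chromosome 19 had 10.6 new peaks, against 10.3 on chromosome 17 and 6.14 on chromosome 22. This does not allow for its gene density. Its 629 peaks stand beside 1471 protein-coding promoters, the 838 of chromosome 17 beside 1174 and the 315 of chromosome 22 beside 444.

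The share was uneven along the chromosome (see the plot along chromosome 19). In the first 5 Mb of the short arm, from OR4F17 to KDM4B, 28 of 156 members had a peak, or 17.9% (12.3% to 24.9%), although these windows had a median of 132 CpGs and a weighted share of 60.6%. Between 10 and 20 Mb the shares were 32.9% and 35.2%, with weighted shares of 45.8% and 48.3%. At the end of the long arm, from 50 Mb onward, they fell to 12.2% and 11.3%, where the windows were poorer in CpGs and the weighted shares 29.3% and 29.8%. The segment from 30 to 35 Mb stood apart, with a peak at 24 of 33 members, or 72.7% (54.5% to 86.7%), and a weighted share of 64.3%. Of the 10 bins with over 2 members, it was the 1 where the observed share was above the weighted one. This depended on the bin, since from 30 to 40 Mb the share was 33.1% against 43.9% weighted, and in the set of 100 neighbouring members that holds the segment it was 52% against 56.3%.

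**Figure D2:**
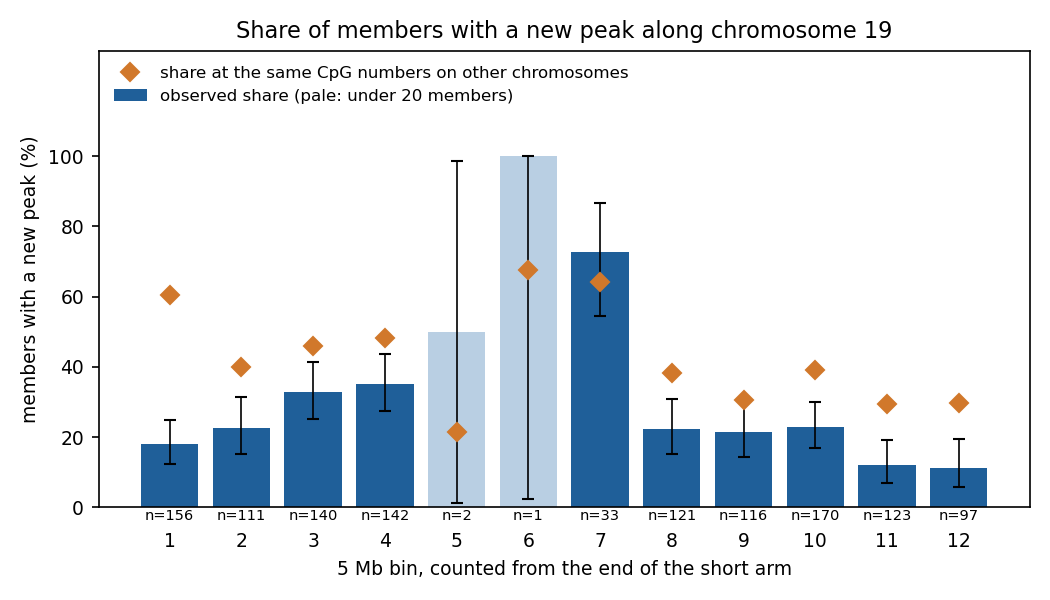
Share of members with a new peak (%, bars, 95% exact binomial intervals) in 12 bins of 5 Mb counted from the end of the short arm, with the number of members under each bar, and the share of promoters with the same CpG numbers on other chromosomes (diamonds). Bin 1 has 17.9% against 60.6% and bin 7 has 72.7% against 64.3%, while bins 5 and 6, shown pale and next to the centromere, hold 3 members together.

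At a like CpG number the first 5 Mb stayed below the rest among members with 111 or more CpGs. The segment from 30 to 35 Mb stood clear of the rest only with 145 to 339 CpGs. Both segments were singled out by their shares in these same data. Among members with 145 to 339 CpGs, 20 of 62 had a peak in the first 5 Mb, or 32.3% (20.9% to 45.3%), against 15 of 15 between 30 and 35 Mb and 72 of 116, or 62.1% (52.6% to 70.9%), on the rest of the chromosome. Among those with 111 to 144 CpGs the counts were 5 of 44 (3.79% to 24.6%), 7 of 8 (47.3% to 99.7%) and 85 of 195 (36.5% to 50.9%). There the interval of 30 to 35 Mb overlapped that of the rest. The other chromosomes had 79.8% and 70.4% in these classes. With 65 to 110 CpGs the counts were 3 of 33 (1.92% to 24.3%), 2 of 8 (3.19% to 65.1%) and 81 of 348, so that the intervals overlapped, and the other chromosomes had 41.9%. Genes of 1 segment are neighbours and some share a window, so they are not independent of each other.

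The segment from 30 to 35 Mb holds the pair of longest runs of neighbouring members that all have a new peak. The first run has 8 members from CCNE1 to NUDT19, over 2879829 bp, and the second 8 members from CEBPA to GPI, over 1062661 bp. Runs count members only and skip ZNF, RPL and RPS promoters. In the first run ANKRD27 and RGS9BP share 1 peak, whose summit at -1093 bp from the RGS9BP start is outside that window. CCNE1, which encodes cyclin E1 of the G1/S transition, had a peak from 30302747 to 30303747 with a fold of 14.9 and 23 fragments at the summit over a background rate of 0.611. TSHZ3, a developmental zinc finger factor, had a fold of 9.40 with 31 fragments. The adjacent genes of the C/EBP transcription factors CEBPA and CEBPG had folds of 3.63 and 7.98, and both peaks were read from similar numbers of fragments, 19 and 21. The lower fold of CEBPA stands over a background rate of 4.51 against 1.76. GPI, the glycolytic glucose-6-phosphate isomerase, had a fold of 8.22. The 9 members of the segment without a peak had 26 to 131 CpGs, and SLC7A10, an amino acid transporter gene, was the one with 131.

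The longest run without a peak counted 28 members over 506577 bp, from PIH1D1 to a gene without a symbol next to SIGLEC11. It includes the promoters of the interferon regulator IRF3, the arginine methyltransferase PRMT1, the small GTPase gene RRAS and the stress factor ATF5. These windows had a median of 99 CpGs. At the shares of the same CpG numbers on other chromosomes, 12.7 of these promoters would have a peak. The like numbers for the runs that follow are 5.79, 6.75 and 6.07, in order. All these runs were picked for having no peak, so the numbers are no test. A run of 23 members from ISOC2 to ZSCAN5A spans NLRP genes of the inflammasome family, and another of 23 from SMIM17 onward covers the imprinted PEG3. A run of 20 members from ATP4A to NPHS1 includes KMT2B, the gene of a histone H3 lysine 4 methyltransferase, whose window has 210 CpGs.

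Chromosome 19 promoters lie in CpG-rich surroundings. Outside the window, the median CpG density in the 50 kb on either side was 2.36 per 100 bp for the members and 1.22 for promoters of other chromosomes, and 549 of the 1212 members fell in the highest of 10 classes of all promoters by this measure. In the first 5 Mb the median was 3.51, and between 30 and 35 Mb it was 1.69. On the other chromosomes too, promoters of the highest class had a peak less often than their own CpG number would give, with 41.9% against 59.0%. When members were weighted by the CpG number of the window and the CpG density of the 50 kb flanks together, the weighted share was 32.0%, and the observed 24.1% was still -7.92 points from it. By that measure chromosome 19 stayed the lowest autosome, at 0.752 times its weighted share. For the first 5 Mb the weighted share became 42.6%, with 17.9% observed. Whether the surroundings act on methylation or on the peak calling was not tested, and neither was methylation already present in untreated cells.

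Where members had a peak, its fold was mostly lower and its background rate higher than elsewhere, with like numbers of fragments. A member promoter with a peak had a median fold of 6.77 (quartiles 5.47 and 8.69), where promoters with a peak on other chromosomes had 8.40 (6.21 and 11.2). The fold is the authors' enrichment at the summit over the local background. The control of the peak caller is not given in the sources used here, so it is not known whether the background holds signal of the untreated cells. Solving it together with the listed p-value gave the number of fragments under the summit, whose median was 18 (14 and 22) in members and 17 (13 and 22) elsewhere. The background rate solved in the same way was 1.46 (0.878 and 2.39) against 0.702 (0.611 and 1.54). It stood at the lowest, genome-wide rate in 9.59% of the members with a peak and in 35.7% of those elsewhere. In the list as a whole, 6 fragments were the fewest that gave a peak at the genome-wide rate, 8 at rates within 5% of the members' median and 11 near the median of 2.34 in the first 5 Mb. No background rate is known for promoters without a peak, so the part of the background in the lower share was not tested.

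The highest folds belonged to genes of diverse function. NUDT19, which encodes a nudix hydrolase of coenzyme A, had a fold of 16.6 with 27 fragments at a summit 368 bp into the gene, in a coding exon, in a peak from 33182685 to 33183682. PDE4A, a cAMP phosphodiesterase gene, had a fold of 15.7 and 3 peaks in its window. ONECUT3, a homeobox factor, had 14.9 with the summit at -4 bp from its start site, and SLC1A6, the glutamate transporter EAAT4, 14.8. JUNB, an AP-1 factor, followed with 14.3, INSR, the insulin receptor gene, with 14.1 and PLEKHF1 with 13.7, a value that SLC1A5 shared. All 8, CCNE1 included, had a background rate between 0.611 and 0.720 and 21 to 27 fragments, so that they combined a low background with fragment numbers in the upper part of the range. The most fragments, 40, were at PLPPR3, where a background rate of 20.1 gave a fold of 1.94, the lowest of the members. Across the 292 promoters, which share 1 library, the correlation of fold and CpG number was near 0 (Spearman rho 0.00882, Pearson r 0.0225, as a description).

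The new peaks covered a part of each promoter. The median covered length was 469.5 bp of the 2001 bp window, or 23.5%, against 640 bp in promoters with a peak on other chromosomes, and 264 members had a single peak in the window, 26 had 2 peaks and 2 had 3. The whole window was covered only at VSTM2B, by a peak of 2637 bp, and GADD45B, a stress-induced gene, followed with 1495 bp in 2 peaks, and MED26 with 1457 bp. The summit lay at or downstream of the start site in 211 of the 292 members, or 72.3%, and the median summit was 151 bp into the gene. By annotation, 81 summits were upstream, 80 in an intron, 75 in a coding exon and 56 in an untranslated exon. The start site itself was inside a peak in 161 members, or 55.1%, against 64.9% elsewhere. Coverage was highest 125 bp downstream, at 65.0% of the members with a peak, and CpGs were densest 25 bp downstream, at 12.8 per 100 bp.

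Many CpG-rich members had no listed peak. Of the 170 members with over 150 CpGs, 76 had none. The 6 with the most CpGs were KLF16 and USF2 (282 CpGs each), TCF3 (255), ADGRL1 (241), DAZAP1 (230) and PTBP1 (228). KLF16, USF2 and TCF3 encode transcription factors, DAZAP1 and PTBP1 RNA-binding proteins of splicing and ADGRL1 the adhesion receptor latrophilin 1. KLF16, TCF3, DAZAP1 and PTBP1 lie in the first 5 Mb. A missing peak is not a measurement of missing methylation, because a promoter methylated in untreated cells, or one with a high background, is not listed either. With 111 or more CpGs, the share of members with a peak still rose, from 32.9% (111 to 126) to 59.0% (171 to 339). In this range, members with and without a peak had medians of 146.5 and 132 CpGs and CpG ratios of 0.750 and 0.705. Their 50 kb flanks held 2.37 and 2.75 CpGs per 100 bp.

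At the low end, none of the 285 members with under 50 CpGs had a peak, which allows a share of up to 1.05%, and on other chromosomes 47 of 4500 such promoters had one, or 1.04%. The promoters with the fewest CpGs and a peak were SIGLEC11 (51 CpGs), ADGRE5 (59), POU2F2 (66), NCCRP1 (67), CLDND2 (70) and TRPM4 (72). At SIGLEC11, the gene of a sialic acid binding lectin, the peak was 264 bp wide with a fold of 5.44 and 14 fragments. SIGLEC11 has a close copy in SIGLEC16, so reads could have been placed at either. At POU2F2, the gene of the lymphoid factor Oct-2, the summit lay at -1069 bp from the start, outside the window. NCCRP1 had 37 fragments over a background rate of 17.3, a fold of 2.07. TRPM4 encodes a calcium-activated cation channel, and its peak, with a fold of 5.61, had its summit 45 bp into the gene.

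The gene groups of chromosome 19 fell into CpG-poor families with next to no peaks and CpG-rich regulatory or housekeeping groups with peaks at a part of their members (see the plot of gene groups). The weighted share, which the CpG numbers of a group's members had on other chromosomes, stands beside its count. With few members per group the intervals are wide.

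Several families, most of them poor in CpGs, had no listed peak. No peak was listed at the 18 leukocyte and killer cell immunoglobulin-like receptor genes (LILR, KIR, LAIR and FCAR, median 33 CpGs), which allows a share of up to 16.7%. Their highest CpG number was 51, and the weighted share was 3.06%. LAIR2 and LILRB4 have the most CpGs of them. The 22 CEACAM and PSG genes, carcinoembryonic and pregnancy-specific glycoproteins, had none at a median of 21.5 CpGs and a weighted share of 0.938%, and the 20 olfactory receptors none at a median of 21 and a weighted share of 0.975%, which allow up to 13.6% and 15%. The 7 galectins, 6 C-type lectins, 9 NLRP genes, 4 interferon lambda genes and 5 apolipoprotein genes had none, but with so few members shares of up to 33.3% (NLRP) to 75% (interferon lambda) are allowed. Their weighted shares were 3.54%, 4.30%, 12.5%, 15.1% and 11.8% in this order, so that few peaks or none would be counted at these CpG numbers on other chromosomes too. Of these, NLRP7 and NLRP2 had 85 and 83 CpGs and IFNL4 101. The KIR and PSG genes, among others, are near copies of each other in sequence, and reads that match several of them cannot be assigned with certainty.

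In 3 further families with low medians, the members with a peak were those with the most CpGs. Of the 15 kallikreins, secreted serine proteases, only KLK10 had a peak, or 6.67%, near the weighted share of 8.81%. The KLK10 window has 100 CpGs against a median of 34 in the kallikreins, and its fold was 4.48 with 20 fragments. KLK13 with 80 CpGs had none. Among the 12 cytochrome P450 genes, CYP4F22 and CYP2S1 had folds of 13.6 and 9.57 with 90 and 74 CpGs, whereas the other 10 had at most 33 CpGs and no peak. The share of 16.7% (2.09% to 48.4%) compares with a weighted one of 6.56%. FUT1, the fucosyltransferase of the H antigen, with 113 CpGs, had a fold of 4.67, and the remaining 4 fucosyltransferases, with 30 to 63 CpGs, had none, against a weighted share of 17.3%. It was otherwise in the gonadotropin beta cluster, where LHB (80 CpGs) had a fold of 4.65 and CGB7 (103 CpGs) had none. The 7 genes had a weighted share of 22.9%. LHB and the CGB genes are close copies. Among the 12 SIGLEC genes, SIGLEC11 (51 CpGs) had the 1 peak, against 7.61% weighted, while SIGLECL1 (54 CpGs) had none.

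Of the transcription factor genes in the list used, 12 of 32 had a peak, or 37.5% (21.1% to 56.3%), with a weighted share of 58.8%. JUND, the AP-1 partner with 241 CpGs, had a fold of 12.4 with 25 fragments, at a summit 1025 bp into the gene, outside the window. Within the list CEBPA has the most CpGs of those with a peak, and KLF16 and TCF3 the most of those without. The list is not complete, and USF2 without a peak and POU2F2 and PBX4 with one are outside it. Of 18 chromatin genes, 9 had a peak (26.0% to 74.0%), against a weighted share of 73.4%. CARM1, an arginine methyltransferase gene, had a fold of 11.4, and GATAD2A, of the NuRD complex, 6.83 from 10 fragments over the genome-wide rate. UHRF1, which recruits DNMT1 to replicated DNA, had a fold of 4.10, and at DNMT1 itself, the maintenance methyltransferase with 109 CpGs, no peak was listed. SAFB and SAFB2 are divergent neighbours and share 1 peak with a fold of 9.14. KMT2B and SMARCA4 had none at 210 and 208 CpGs.

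The respiratory chain genes had a peak at 2 of 12, or 16.7% (2.09% to 48.4%), where the weighted share was 61.9%. These were ATP5F1D, of the ATP synthase, with a fold of 4.85, and UQCRFS1, the Rieske protein of complex III and the only member between 25 and 30 Mb, with 6.46. UQCR11 and NDUFS7 had none at 138 and 137 CpGs. The intervals of this group and of the transcription factor genes lay below their weighted shares, with no allowance made for the 24 groups described. All 1212 members together had 24.1% against 41.9% weighted. The lower shares are therefore not shown to be particular to these 2 groups. The translation factor genes EEF2, EIF3G and EIF3K had none at 98 to 115 CpGs, against a weighted share of 60.7%, too few genes to bound a share. Of the 9 RNA splicing genes, 4 had a peak (13.7% to 78.8%), against a weighted share of 71.7%, with folds of 9.81 at HNRNPM and 8.44 at HNRNPL, while U2AF2 and SF3A2 had none at 190 and 178 CpGs. PSMD8 of the proteasome had a peak with 8 fragments, the fewest of the members and level with SUPT5H, and PSMC4 had none, for a weighted share of 49.9%.

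Of 18 signalling kinase genes, 6 had a peak, or 33.3% (13.3% to 59.0%), with a weighted share of 58.3%. INSR had a fold of 14.1, and STK11, the tumor suppressor kinase LKB1, 3.41 from 13 fragments over a rate of 3.11. CSNK1G2 and MAP2K7 had none at 215 and 168 CpGs. In the Notch, TGF and growth factor group, 6 of 13 had a peak, or 46.2% (19.2% to 74.9%) against a weighted 55.7%, with folds of 3.76 at GDF1 and 5.04 at TLE5. The TLE5 summit lay 1142 bp into the gene, outside the window, of which the peak covered 71 bp. The receptor gene NOTCH3 had none at 143 CpGs and the ephrin gene EFNA2 none at 208. Ion channel genes had a peak at 6 of 17, or 35.3% (14.2% to 61.7%), against a weighted share of 48.8%. At HCN2, a pacemaker channel gene with 248 CpGs, 31 fragments over a rate of 13.9 gave a fold of 2.15. This summit lay 1370 bp into the gene, outside the window. KCNA7 had none at 192 CpGs.

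DNA repair genes had a peak at 2 of 8 (3.19% to 65.1%), against a weighted share of 47.7%. These were at LIG1, the ligase of replication, with a fold of 5.28 and at ERCC2, the helicase of nucleotide excision repair, with 6.39. POLD1 had none at 116 CpGs. The 19 zinc finger genes under other symbols (ZFP, ZSCAN, ZBTB, ZIM, ZIK1 and PEG3) had a peak at 6, or 31.6% (12.6% to 56.6%), with a weighted share of 46.5%. ZBTB7A had a fold of 4.26 and ZFP30 8.53. ZSCAN1 had none at 164 CpGs and PEG3 none at 110.

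The member promoters account for 294 of the 629 new peaks of the chromosome, or 46.7%, of which 7 also reach a ZNF, RPL or RPS promoter and 27 reach more than 1 member. A further 48 peaks lie only at ZNF, RPL or RPS promoters. The other 287 overlapped no protein-coding promoter. Their summits lay a median of 8413 bp from the nearest canonical start site, and their median fold was 5.48.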

How the data were processed

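The submitters' processing notes name FastQC, Bowtie2, deepTools and MACS2, and per the study's methods reads were mapped to hg19. The settings and the control of the peak caller are not given in the sources used here. The authors' list has 10 columns without a header. The deposited score was not used. The deposited fold is a ratio at the summit, and the last columns are deposited as −log10 of the p-value, −log10 of the q-value and the distance to the summit. Of the 12864 peaks, 12795 lay within the chromosomes of GRCh37 and 69 were on unplaced or alternative sequences of hg19, where no promoter was counted.

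Fragments k and the background rate were recovered by solving fold = (k + 1)/(rate + 1) with a p-value read as the chance of over k fragments in a Poisson distribution of that rate, which met the listed −log10 p within 0.000403 in every peak. That this describes the caller is an inference. Depth behind a value is a median of 18 fragments.

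CpGs were counted in the GRCh37 sequence of each 2001 bp window. The 10 classes of CpG number hold about equal parts of all 19863 promoters, and a weighted share gives each promoter the share of its class on other chromosomes. Shares have exact binomial intervals at 95%. No p-value was computed. Start sites on Y that copy those of X were left out. Members and gene groups were chosen with earlier results of these data known. Named were the 8 highest folds, the 6 most and 6 fewest CpGs without and with a peak, the 3 widest coverages, the 4 longest runs of each kind and up to 4 members of each group with the most CpGs. Other genes named, and the weighting by flanks, were chosen after values were seen. Some genes that the rule names are not reported here. Steps were tested on simulated data. Software was Python 3.11.15, numpy 2.4.6, pandas 2.3.3, scipy 1.17.1 and matplotlib 3.10.9.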

Additional observations from a re-analysis of the deposited data

How the results depend on the processing

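No paired analysis was possible because each condition has a single library, and leaving out a replicate was likewise not possible. Of 33 values under alternative settings, 7 of them under settings chosen after seeing the data, 23 stayed within 1.5 times for a count or a median, or within the interval of the main value for a share. With peaks of at least the median fold, 124 members had a peak, or 10.2%, where the other chromosomes had 27.2%. With a −log10 q of at least 10 there were 129, or 10.6%, against 26.1%. With any protein-coding start site the share was 28.2%, against 46.0%. These changes follow from fewer peaks or more start sites. The difference from the weighted share went from -17.8 points to -10.5 with classes of the observed/expected CpG ratio, to -7.92 with the 50 kb flanks added and to -8.58 with the 5 kb flanks added (both chosen after seeing the data), and was below 0 under every weighting tried. Of the 8 members with the highest fold, 3 were among the 8 highest by −log10 q and 0 among the 8 highest by fragments. Depth limits the list, since weakly methylated promoters with few fragments are not in it, and neither the state of unlisted promoters nor the spread between libraries can be known from it.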

Other observations

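Short motifs were counted in the members from 200 bp upstream to 50 bp downstream of the start site, on both strands, with GGGCGG (the GC box of SP factors), CCGGAAG (ETS), GCGCATGC (NRF1), TGACGTCA (cAMP response element), CCAAT (NFY) and TATAAA (the box of TATA-binding protein). A match is not evidence of binding. GGGCGG was held by 84.9% of the members with a peak and 57.4% of those without, and by 59.2% of all protein-coding promoters. Among members with 111 or more CpGs it was 86.8% and 86.4%. In that CpG-rich range GCGCATGC was held by 2.94% of the members with a peak and 7.63% of those without, CCGGAAG by 13.7% and 18.6%, and CCAAT by 26.5% and 34.7%. In all protein-coding promoters, whatever their CpG number, these were held by 4.03%, 13.2% and 32.2%. Only 57 of all members held GCGCATGC, 13 of them with a peak, so its shares rest on few promoters. TGACGTCA was held by 3.92% and 4.24% in that range and by 2.57% of all promoters. TATAAA was found in 4.11% of the members with a peak and 7.61% of those without, against 8.13% of all promoters, and with 111 or more CpGs in 4.90% and 4.66%. GGGCGG itself holds a CpG, as do the ETS, NRF1 and CRE motifs, and the counts were not tested.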
